A study of Mus musculus with 2 samples.

Results

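The 9 cadherin genes Cdh1, Cdh2, Cdh3, Cdh4, Cdh5, Cdh6, Cdh11, Cdh13 and Cdh16 were described across the cell classes of the newborn mouse kidney. They were taken by gene symbol from the gene lists of 2 single-cell RNA libraries, both of kidney at P0 and both of the genotype Rbpj c/+ ; Foxd1cre/+. All cells compared therefore come from this 1 genotype, and no group without these alleles was analysed here. Foxd1 is a transcription factor of renal stromal progenitors. Whether the Rbpj allele was changed in cells with Foxd1cre activity, and so differed between classes, was not tested. Whether a library came from 1 animal or from pooled animals, or the 2 from separate animals, is not given. The p-values therefore measure how far class differences varied between these libraries, pooled over classes, and may not measure a spread between animals.

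After filtering, 5284 cells of library 1 and 4064 cells of library 2 remained, with a median of 14689.5 and 19773 UMIs (unique molecular identifiers, counts of single RNA molecules) per cell. Each cell was assigned to a class when at least 3 markers of that class stood above the level expected from free RNA, the RNA of broken cells that is captured in every droplet. No cadherin was among the 126 markers. A class was reached by 70.5% and 79.9% of cells, and 15 classes held at least 20 cells in both libraries. At least 1 marker of its own was among the 10 leading genes of each of the 15 classes (1 in proximal precursors, 3 or more in the others), and Cdh5 was a leading gene of endothelium. The libraries shared 5 cell barcodes. In each class the UMIs of all its cells were summed per library and scaled to CPM, the counts per 1000000 UMIs, and values below are given as library 1 and library 2. These counts come from the 3′ ends of transcripts and are not scaled for length, so a level is compared between classes for 1 gene and not between genes.

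Cadherins are calcium-dependent adhesion proteins that bind their like on the neighbouring cell. Classical cadherins hold adherens junctions together through catenins, which tie the cytoplasmic tail to actin. In the kidney, mesenchymal nephron progenitors convert into epithelium, form a renal vesicle and then pattern into podocytes and tubule segments, a process in which the cadherins on the cell surface are exchanged. The members include type I cadherins (E-cadherin, encoded by Cdh1; N-cadherin, Cdh2; P-cadherin, Cdh3; R-cadherin, Cdh4), type II cadherins (VE-cadherin of vessels, Cdh5; K-cadherin, Cdh6; OB-cadherin, Cdh11), the T-cadherin Cdh13, which is anchored in the membrane by a lipid and has no cytoplasmic tail, and the kidney-specific cadherin Cdh16, which has only a short tail.

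On GRCm38, 6 of the 9 genes lie on chromosome 8: Cdh11 (chr8:102632095-102785642), Cdh5 (chr8:104101625-104144511), Cdh16 (chr8:104601911-104624396), Cdh3 (chr8:106510891-106557297), Cdh1 (chr8:106603351-106670246) and Cdh13 (chr8:118283733-119324921). Cdh4 is on chromosome 2 (chr2:179442431-179899373), Cdh6 on chromosome 15 (chr15:13028701-13173675) and Cdh2 on chromosome 18. Cdh11 and Cdh5 are neighbouring coding genes 1315983 bp apart, and they were high in different cells, stroma and endothelium. Antisense genes overlap Cdh2, Cdh4, Cdh5 and Cdh13, and genes on the same strand overlap Cdh11 and Cdh13. Whether reads were counted by strand is not given in the sources used here, so these UMIs may include reads of the overlapping genes.

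Each cadherin had a different distribution over the 15 classes. Cdh1 and Cdh16 were highest in tubule and collecting system, Cdh3 in the ureteric tip, Cdh2 in nephron progenitors, Cdh4 in podocytes, nephron progenitors and early nephron, Cdh6 in proximal precursors, Cdh11 in stroma and Cdh5 in endothelium. Cdh13 stayed under 50 CPM in all 15 classes, with its highest level in the early nephron class. For Cdh5, the mean of the highest class was 49.8 times that of the next, and for Cdh4 it was 1.38 times. The order of the classes was not sharp for every gene. Of the 14 pairs of neighbouring classes in each order, between 8 (Cdh2, Cdh11 and Cdh16) and 12 (Cdh13) overlapped between the libraries.

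**Figure D1:**
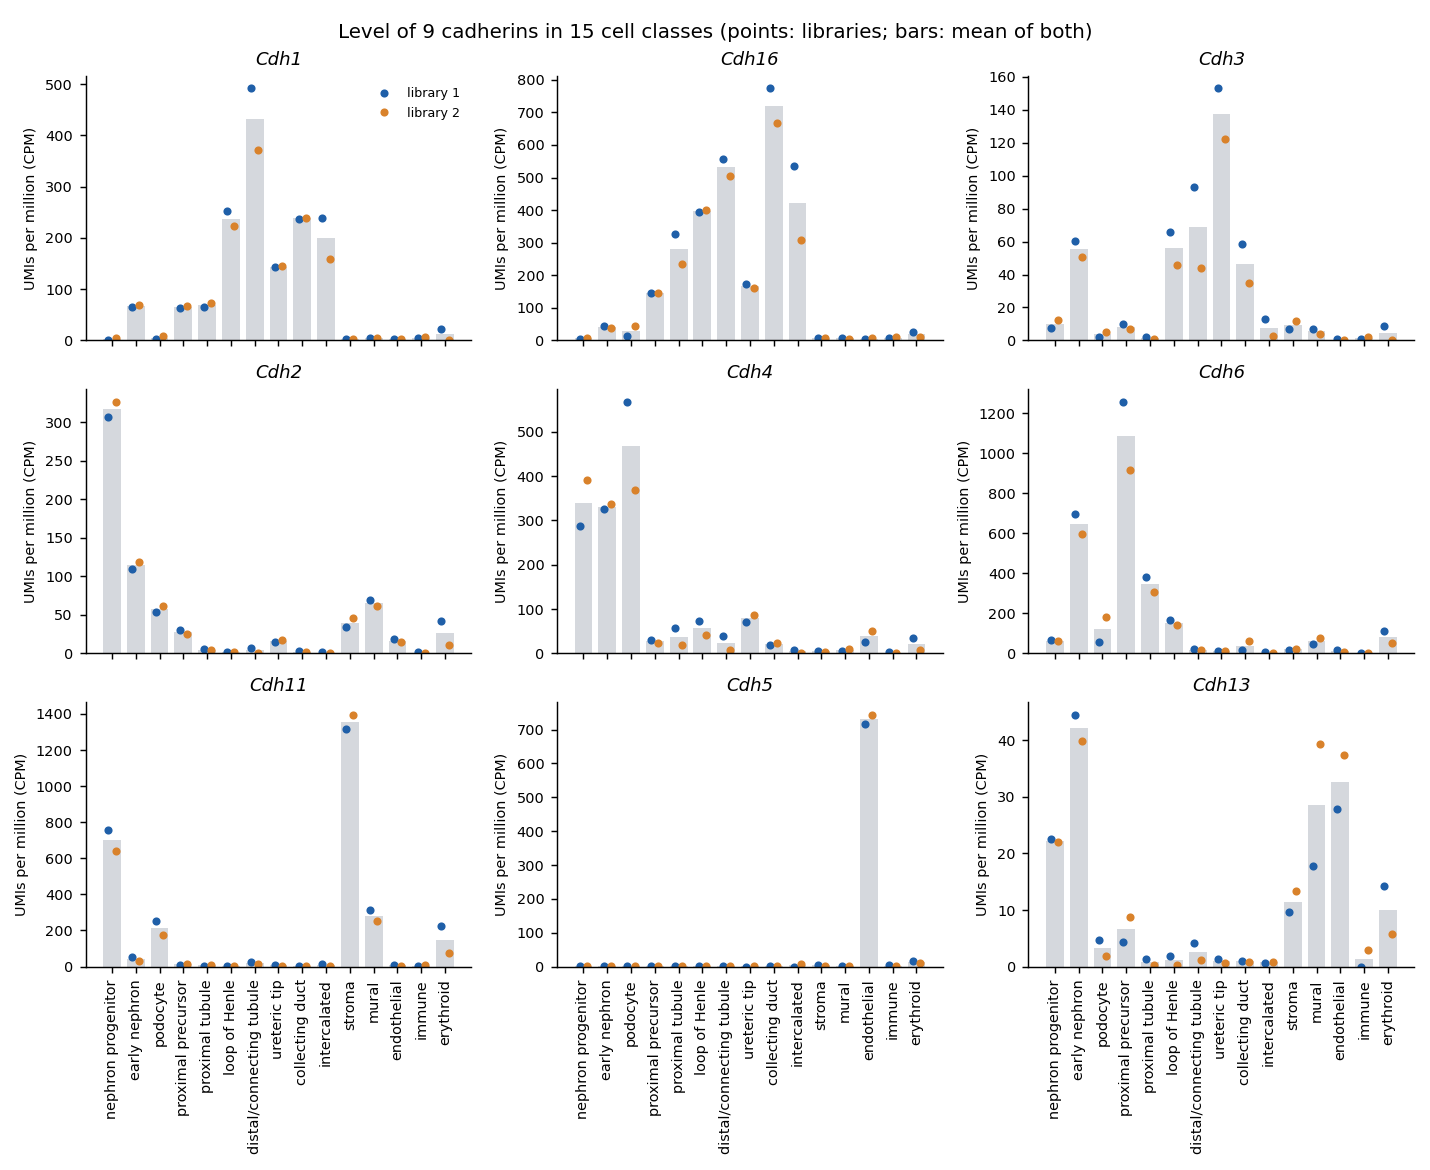
Level of each cadherin (vertical axis, CPM, each panel on its own scale from 0) in 15 cell classes (horizontal axis); points are the 2 libraries and bars their mean. Cdh5 stands at 717 and 744 CPM in endothelium and under 20 CPM in all other classes, whereas Cdh1 and Cdh16 extend over tubule, ureteric tip and collecting duct.

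E-cadherin, the main adhesion protein of epithelial adherens junctions, was highest in distal convoluted or connecting tubule, where Cdh1 stood at 492 and 372 CPM. Collecting duct (237 and 239 CPM) and loop of Henle (252 and 223 CPM) followed and overlapped, and intercalated cells had 239.8 and 158 CPM. Ureteric tip cells, the growing ends of the collecting system, had 142 and 145 CPM. A lower step was formed by proximal tubule (65.4 and 73.0 CPM), early nephron (64.4 and 69.8 CPM) and proximal precursors (63.8 and 67.4 CPM). The ranges of proximal tubule and early nephron overlapped, as did those of early nephron and proximal precursors. Nephron progenitors had 1.62 and 4.08 CPM and stroma had 2.74 and 3.56 CPM.

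Cdh16 encodes a cadherin of the basolateral membrane of tubule epithelium. It was highest in collecting duct (774 and 666 CPM), followed by distal convoluted or connecting tubule (558 and 506 CPM), intercalated cells (535 and 308 CPM) and loop of Henle (395 and 401 CPM). Proximal tubule had 327 and 235 CPM, ureteric tip 174 and 159.8 CPM and proximal precursors 146 and 146 CPM. Cdh16 thus covered every tubule class, and its level in early nephron was 45.1 and 39.2 CPM.

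P-cadherin is found in basal epithelia and is less studied in kidney. Cdh3 was highest in ureteric tip (153 and 122 CPM), and no other class reached these values. Distal convoluted or connecting tubule had 93.0 and 44.2 CPM, loop of Henle 65.6 and 46.0 CPM, early nephron 60.1 and 50.5 CPM and collecting duct 58.4 and 34.6 CPM, with overlap from each of these to the next. Proximal tubule was nearly devoid of it, at 1.77 and 0.951 CPM.

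N-cadherin is typical of mesenchyme and of early nephron structures. Cdh2 was highest in nephron progenitors at 307 and 327 CPM and lower in early nephron at 109 and 119 CPM. Mural cells (70.0 and 61.7 CPM) and podocytes (53.9 and 61.9 CPM) overlapped, stroma had 34.2 and 45.6 CPM and proximal precursors 30.1 and 24.9 CPM. In loop of Henle, collecting duct and intercalated cells Cdh2 was under 3 CPM in both libraries. R-cadherin, a close relative of N-cadherin, was shared by 3 classes: Cdh4 stood at 568 and 369 CPM in podocytes, 287 and 391 CPM in nephron progenitors and 326 and 336 CPM in early nephron, and the ranges of neighbours among these overlapped. Ureteric tip followed with 70.6 and 87.7 CPM. In proximal tubule the libraries differed, with 57.5 and 18.5 CPM. In library 2, 1 podocyte held 423 of the 1862 Cdh4 UMIs of its class. Without the highest cell of each class, Cdh4 in library 2 was 300 CPM in podocytes, 385 CPM in nephron progenitors and 321 CPM in early nephron.

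K-cadherin is known from the early proximal nephron. The window of 250 bases before the start of Cdh6 is shown because it is the only one of the 9 promoters that the RefSeq promoter table for GRCm38.p6 holds (chr15:13173676-13173925, minus strand, 5′ to 3′), with a match to CAAAGTCC, a form of the site bound by HNF4 factors, in capitals:
Cdh6: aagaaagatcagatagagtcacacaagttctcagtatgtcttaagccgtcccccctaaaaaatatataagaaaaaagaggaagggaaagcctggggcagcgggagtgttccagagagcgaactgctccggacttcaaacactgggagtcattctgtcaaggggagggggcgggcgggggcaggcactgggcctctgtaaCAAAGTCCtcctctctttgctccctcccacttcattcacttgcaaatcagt
All 5 motifs were searched on both strands. The E-box form CAGGTG, which 17.2% of 32851 promoter windows of this length hold, had no match here. The HNF1 form GTTAAT (held by 6.43%), the GATA form AGATAA (held by 9.99%) and the ETS form CCGGAA (held by 12.0%) had none either. CAAAGTCC was added after the sequence had been read, and 1.20% of the windows hold it, so the match is a description only.

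Cdh6 was highest in proximal precursors, cells with Hnf4a, Osr2 and endocytic receptor genes but few transporter genes, at 1258 and 917 CPM. Early nephron had 696 and 594 CPM, proximal tubule 384 and 306 CPM and loop of Henle 165 and 142 CPM, and these classes did not overlap each other. Nephron progenitors had 67.9 and 60.2 CPM. Podocytes differed between the libraries, with 59.3 and 182 CPM, and 1 cell held 36.3% of the podocyte Cdh6 UMIs of library 2. In collecting duct Cdh6 was 18.7 and 60.5 CPM, but in library 2 a single cell held 293 of the 364 UMIs, and without the highest cell of each library the level was 16.8 and 12.2 CPM.

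OB-cadherin is a cadherin of mesenchyme. Cdh11 was highest in stroma at 1315 and 1396 CPM. Nephron progenitors had 759 and 639 CPM, mural cells 313 and 253 CPM and podocytes 255 and 177 CPM. Early nephron was far lower at 51.7 and 30.3 CPM, and loop of Henle and collecting duct had under 5 CPM. VE-cadherin, the adhesion protein of endothelial junctions, was at 717 and 744 CPM in endothelium. In early nephron Cdh5 was 0.691 and 0.643 CPM, and in ureteric tip of library 1 it had 0 of 3667323 UMIs, which allows up to 0.818 CPM.

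T-cadherin binds lipoproteins and adiponectin in vessel walls. Cdh13 stood at 44.6 and 40.0 CPM in early nephron, 27.8 and 37.4 CPM in endothelium, 17.7 and 39.4 CPM in mural cells and 22.5 and 22.1 CPM in nephron progenitors. The early nephron values were above those of endothelium in both libraries, but endothelium, mural cells and nephron progenitors did not follow a clear order. With classes taken from Leiden clusters instead of gates, endothelium was the highest class.

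The share of cells with a UMI was taken after each cell had been thinned to 3000 UMIs, which left out no cell, and is given beside the share in immune cells, which should lack these genes and so show the free RNA. Cdh11 was found in 93.8% and 94.9% of stromal cells (exact 95% intervals 91.5 to 95.6 and 93.1 to 96.3, 99.5% and 100% before thinning), against 1.61% and 2.53% of immune cells. Cdh5 was found in 88.3% and 85.9% of endothelial cells (99.5% and 99.0% before thinning), against 1.61% and 0% of immune cells. Cdh6 was found in 88.5% and 77.1% of proximal precursors and Cdh16 in 81.5% and 86.4% of collecting duct cells (99.3% and 99.0% and 99.2% and 100% before thinning), against 0.806% and 3.80% and 3.23% and 3.80% of immune cells. These 4 were thus detected in most cells of their highest class. Cdh2 was found in 58.1% and 59.4% of nephron progenitors and Cdh1 in 57.8% and 68.2% of distal convoluted or connecting tubule cells, against 0% and 0% and 1.61% and 5.06% of immune cells. Cdh4 was found in 26.6% and 26.5% of podocytes, its highest class in CPM (40.3% and 45.1% before thinning), in 49.6% and 47.7% of early nephron cells, and Cdh3 in 32.1% and 26.2% of ureteric tip cells, against 1.61% and 0% and 0.806% and 0% of immune cells. Cdh13 was found in 8.70% and 12.3% of early nephron cells, against 0% and 1.27% of immune cells. Its exact 95% intervals in early nephron were 5.65 to 12.7 and 7.20 to 19.2, and its shares before thinning 42.8% and 43.8%. Before thinning the median was 10725 and 10087 UMIs in immune, 29839.5 and 36808.5 in early nephron, 11449 and 16457 in stromal and 10986 and 13236 in endothelial cells. The intervals cover counting error only.

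A level of at least 50 CPM in both libraries was used to count the cadherins of a class. This cut was the same for every gene, although the genes were not scaled to each other. The share of all genes over it was not taken, so the counts are a description only. Early nephron held 5 (Cdh6, Cdh4, Cdh2, Cdh1 and Cdh3), with Cdh3 near the cut at 60.1 and 50.5 CPM. Loop of Henle, at 65.6 and 46.0 CPM of Cdh3, missed the cut for it in library 2. Nephron progenitors, podocytes and ureteric tip held 4 each, and the mature tubule classes 2 or 3. Stroma held Cdh11 alone, endothelium Cdh5 alone, and immune cells none. The erythroid class held Cdh11 (227 and 72.9 CPM) and Cdh6 (114 and 50.9 CPM), and its libraries differed by more than 2 times in each. The 8 stromal markers summed to 538 and 325 CPM in the erythroid class, with 0 and 2 of them at 0, and the 8 nephron progenitor markers to 472 and 50.9 CPM; the part of such RNA in the cadherin values was not tested. In free RNA itself the cadherins ranged from 12.9 CPM (Cdh3) to 178 CPM (Cdh11) in library 1. In library 2 they ranged from 9.33 CPM (Cdh13) to 174 CPM (Cdh16). Free RNA was estimated from haemoglobin UMIs in gated cells outside the erythroid class. It was 2.80% and 0.979% of the pooled UMIs of these cells, and 1.35% and 0.503% in the median cell. No estimate was made for the erythroid class.

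Differences between classes were tested in 11 comparisons with edgeR's quasi-likelihood test on the class sums of both libraries, with Benjamini-Hochberg adjustment over all genes tested and a threshold of 0.05. Positive log2 differences mean a higher level in the class named first, and each interval is the difference minus and plus 2 SE. The spread was pooled over all 15 classes, since each class has 2 sums. Cells of 2 classes differ in many genes, so the share of all genes that passed is given beside each count. In the 11 comparisons 52 of 99 cadherin tests passed, where 3.23% to 51.9% of all genes did, depending on the comparison. Several comparisons share a class, so these tests are not independent.

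**Figure D2:**
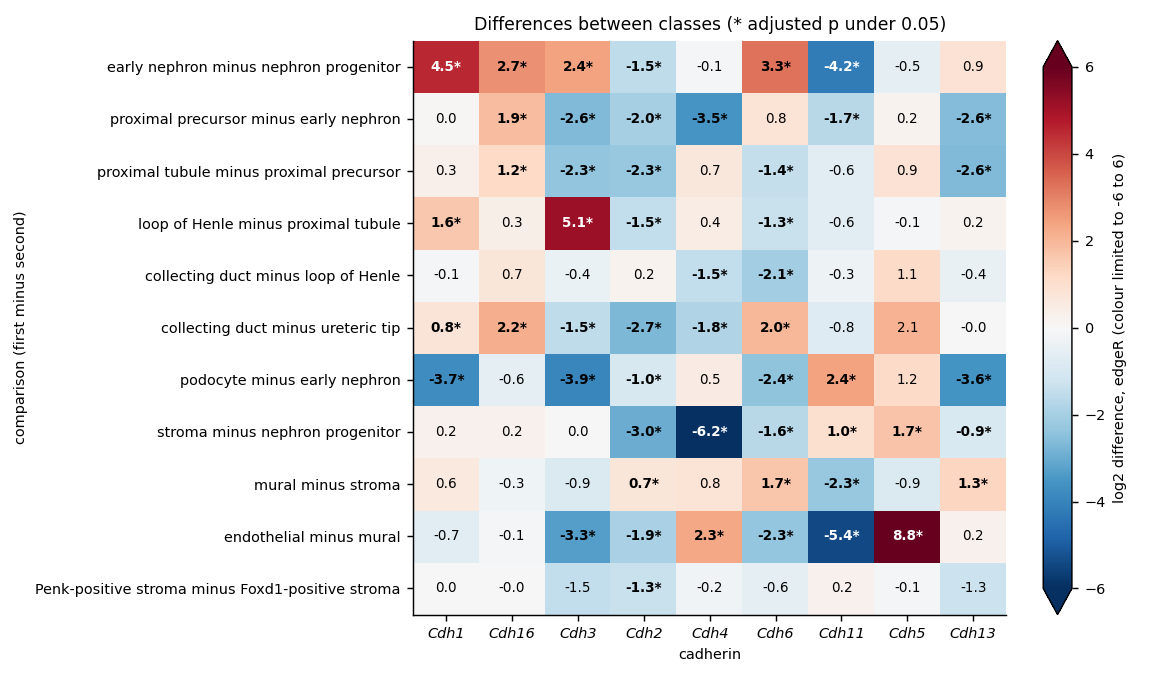
Log2 difference of each cadherin (columns) in each of 11 comparisons (rows, first class minus second) from edgeR; colour and number give the difference, and an asterisk an adjusted p under 0.05. Cdh5 in endothelium against mural cells (8.79) and Cdh4 in stroma against nephron progenitors (-6.19) are the extremes.

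The step from nephron progenitors, marked by Six2 and Cited1, to early nephron, marked by Wnt4 and Lhx1, shows the cadherins during the change from mesenchyme to epithelium. In early nephron Cdh1, Cdh6, Cdh16 and Cdh3 were higher, and Cdh11 and Cdh2 were lower. Thus 6 of 9 cadherins passed, where 29.7% of the 17079 genes tested did (16% higher and 13.7% lower). Cdh1 rose most (log2 difference 4.53, SE 0.34, adjusted p = 9.42e-10), from 1.62 and 4.08 CPM to 64.4 and 69.8 CPM, with no overlap. Cdh6 rose (log2 difference 3.26, SE 0.42, adjusted p = 2.53e-06), as did Cdh16 (log2 difference 2.74, SE 0.35, adjusted p = 2.52e-06) and Cdh3 (log2 difference 2.40, SE 0.33, adjusted p = 6.84e-06). Cdh11 fell (log2 difference -4.17, SE 0.30, adjusted p = 4.06e-10), and Cdh2 fell by less (log2 difference -1.54, SE 0.21, adjusted p = 5.55e-06). Both directions held in each library, and the rise of Cdh1 was 5.196 in library 1 and 4.06 in library 2 alone. Cdh4 did not pass (log2 difference -0.11 with an interval from -0.91 to 0.68, adjusted p = 0.868), and Cdh13 did not pass either (log2 difference 0.86 with an interval from 0.17 to 1.54, adjusted p = 0.0639), although it did in 4 of the alternative settings.

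Of 14 further cadherins listed, 9 had enough UMIs to be tested, and 7 of the 9 other cadherins passed (2 higher, 5 lower, median log2 difference -1.66), where 29.7% of all genes did. Those with the largest log2 differences were Cdh20 (4.57), Cdh15 (-3.76), Cdh12 (-3.53) and Cdh22 (-2.94). Besides, 10 of the 17 catenins and junction partners passed (9 higher, 1 lower, median log2 difference 0.52). The largest were Plekha7 (2.71), Ctnna3 (2.46), Ctnnd2 (1.18) and Arvcf (0.78); Plekha7 links the adherens junction to microtubules. Finally, 7 of the 12 regulators of E-cadherin and epithelial state passed (5 higher, 2 lower, median log2 difference 1.14). The largest were Grhl2 (6.62), Esrp1 (5.11), Epcam (3.76) and Snai2 (-3.73): Grhl2 is a transcription factor that maintains epithelia, Esrp1 an epithelial splicing factor, Epcam an epithelial adhesion protein and Snai2 a repressor of E-cadherin. The median over all genes tested was -0.03, and in the comparisons below it lay between -0.06 and 0.05.

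Within the nephron progenitor class, cells with Wnt4, an early signal of commitment, were set beside cells without it; the division was chosen after the classes had been seen and has no test. Cdh6 was 139.5 and 196 CPM in the 89 and 46 cells with Wnt4 and 35.3 and 23.8 CPM in those without. Cdh4 was 387 and 572 CPM against 241 and 342 CPM. Cdh1 stayed under 5 CPM on both sides (1.01 and 2.14 CPM with Wnt4). Cdh11 was 773 and 687 CPM with Wnt4 and 752 and 626 CPM without. Cells with Wnt4 therefore had more Cdh6 in both libraries while Cdh1 was still low and Cdh11 still high. They were also deeper, with a median of 33243 and 47896.5 UMIs against 18978 and 25419, and the part of depth in this division was not tested.

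Early nephron cells were divided in the same way, by Fgf8 or Dll1, ligands of the renal vesicle and its derivatives. Cdh3 was 77.3 and 56.5 CPM in the 157 and 78 cells with Fgf8 or Dll1 and 32.1 and 39.2 CPM in the 119 and 52 cells without. Cdh13 was 57.2 and 55.5 CPM with and 23.9 and 10.8 CPM without. Cdh11 was 25.9 and 10.998 CPM with and 93.7 and 66.7 CPM without. Cells with these ligands thus had more Cdh3 and Cdh13 and less of the mesenchymal Cdh11 in both libraries, with no overlap. Cdh1 was 68.5 and 69.1 CPM with and 57.7 and 71.0 CPM without.

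From early nephron to proximal precursors, 6 of 9 cadherins passed, where 41.7% of the 17079 genes tested did (21.9% higher and 19.8% lower). Cdh16 rose (log2 difference 1.87, SE 0.32, adjusted p = 5.86e-05). Cdh4 fell most (log2 difference -3.52, SE 0.46, adjusted p = 2.44e-06), and Cdh3 (log2 difference -2.64, SE 0.38, adjusted p = 7.28e-06), Cdh13 (log2 difference -2.61, SE 0.42, adjusted p = 3.53e-05), Cdh2 (log2 difference -1.98, SE 0.23, adjusted p = 4.41e-07) and Cdh11 (log2 difference -1.67, SE 0.32, adjusted p = 2.21e-04) fell too. The libraries alone gave -2.55 and -0.90 for Cdh11 and -3.21 and -2.14 for Cdh13. Cdh1 did not pass (log2 difference 0.05 with an interval from -0.50 to 0.60, adjusted p = 0.922). Cdh6, the gene with its highest level in the precursors, did not pass either (log2 difference 0.84 with an interval from 0.07 to 1.61, adjusted p = 0.0872), and it passed in 3 alternative settings. In the lists, 4 of the 9 other cadherins passed (1 higher, 3 lower, median log2 difference -1.15), 8 of the 17 catenins and junction partners passed (6 higher, 2 lower, median log2 difference -0.08) and 6 of the 12 regulators of E-cadherin and epithelial state passed (3 higher, 3 lower, median log2 difference -0.85). The largest log2 differences were those of Cdh20 (-3.74), Cdh22 (-2.61), Cdh8 (2.44) and Cdh24 (-1.22) among the cadherins and Nectin1 (2.14), Jup (1.58), Nectin3 (1.04) and Pkp4 (0.999) among the partners. Nectin1 is an adhesion protein that assembles adherens junctions and Jup is plakoglobin. Of the regulators, Esrp1 (-2.41), Zeb1 (-2.23), Grhl2 (-1.98) and Esrp2 (1.79) were named by the same rule; Zeb1 is a repressor of E-cadherin, and Esrp1, Grhl2 and Esrp2 are epithelial.

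From proximal precursors to proximal tubule, the class with solute transporters, 5 of 9 cadherins passed, where 28.6% of the 17079 genes tested did (15.4% higher and 13.3% lower). Cdh16 rose again (log2 difference 1.19, SE 0.30, adjusted p = 0.00506). Cdh6 fell (log2 difference -1.42, SE 0.39, adjusted p = 0.00820), as did Cdh2 (log2 difference -2.29, SE 0.27, adjusted p = 1.66e-06), Cdh3 (log2 difference -2.34, SE 0.53, adjusted p = 0.00195) and Cdh13 (log2 difference -2.64, SE 0.64, adjusted p = 0.00330). The value for Cdh13 was -1.42 in library 1 and -5.06 in library 2 alone, where proximal tubule had 2 Cdh13 UMIs. Cdh1 did not pass (log2 difference 0.31 with an interval from -0.24 to 0.86, adjusted p = 0.455). The call for Cdh16 was lost when free RNA was subtracted (log2 difference 1.20, SE 0.47, adjusted p = 0.0660), and that for Cdh6 when cells with over 10% mitochondrial UMIs were left out (adjusted p = 0.0679). In the lists, 2 of the 9 other cadherins passed (0 higher, 2 lower, median log2 difference -0.58), 8 of the 17 catenins and junction partners passed (4 higher, 4 lower, median log2 difference 0.26) and 3 of the 12 regulators of E-cadherin and epithelial state passed (1 higher, 2 lower, median log2 difference 0.22). In this step the largest log2 differences were those of Cdh8 (-2.27) and Cdh24 (-1.52) among the cadherins, Ctnnd2 (-4.20), Ctnnal1 (-0.97), Plekha7 (0.91) and Nectin1 (0.88) among the partners, where Ctnnd2 is delta-catenin, and Grhl2 (-1.95), Esrp1 (-1.79) and Esrp2 (0.90) among the regulators.

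The proximal cells were also ordered by the number of the 8 transporter markers above free RNA, as a description with no test, since the order was chosen after the classes had been seen. Cdh6 was 1454 and 1033 CPM in precursors with 0 markers, 1145 and 868 CPM with 1 or 2, 630.4 and 345 CPM in proximal tubule with 3 or 4 and 294 and 262 CPM with 5 or more. It was thus lower at each step in both libraries. Cdh16 went the opposite way, from 128 and 89.0 CPM through 156 and 169 CPM and 293 and 221 CPM to 339.5 and 250.3 CPM. Cdh1 was 38.3 and 43.9 CPM with 0 markers and 78.5 and 77.2 CPM with 1 or 2, and then stayed between 65 and 74 CPM. Cells with 5 or more markers were deeper (median 46545 and 52308.5 UMIs) than cells with 0 (22103 and 37095), and the part of depth was not tested.

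**Figure D3:**
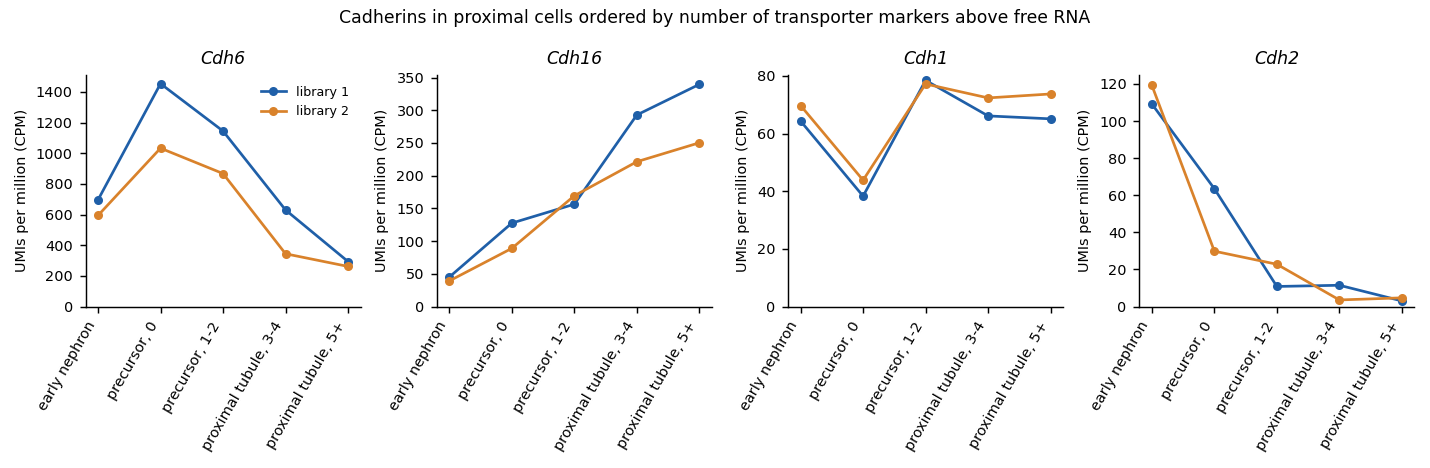
Levels of Cdh6, Cdh16, Cdh1 and Cdh2 (vertical axis, CPM) in early nephron and in 4 groups of proximal cells ordered by the number of transporter markers above free RNA (horizontal axis); lines join the values of each library. Cdh6 peaks in precursors with 0 markers and Cdh16 is highest in cells with 5 or more.

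Between loop of Henle and proximal tubule, 4 of 9 cadherins passed, where 44.1% of the 17079 genes tested did (23.2% higher and 21% lower), so the share of cadherins was near the background. Cdh3 was higher in loop of Henle (log2 difference 5.14, SE 0.44, adjusted p = 2.38e-09), at 65.6 and 46.0 CPM against 1.77 and 0.951 CPM, and so was Cdh1 (log2 difference 1.63, SE 0.27, adjusted p = 2.90e-05). Cdh2 (log2 difference -1.47, SE 0.35, adjusted p = 0.00133) and Cdh6 (log2 difference -1.33, SE 0.39, adjusted p = 0.00800) were lower. With classes from Leiden clusters the direction turned for both, to 0.98 (adjusted p = 0.0147) for Cdh2 and 0.08 (adjusted p = 0.841) for Cdh6, while Cdh1 and Cdh3 kept theirs. Cdh13, at 0.20 with the gates (adjusted p = 0.872), was at 4.91 with Leiden clusters (adjusted p = 3.75e-06), and Cdh4, at 0.44 (adjusted p = 0.433), passed in 3 alternative settings. Cdh2 also lost its call without doublet removal (adjusted p = 0.0716). Its levels were low in both classes, at 2.24 and 1.56 CPM in loop of Henle against 5.31 and 4.12 CPM. Cdh16 did not pass (log2 difference 0.34 with an interval from -0.25 to 0.93, adjusted p = 0.386). In the lists, 3 of the 9 other cadherins passed (2 higher, 1 lower, median log2 difference 0.05), 7 of the 17 catenins and junction partners passed (4 higher, 3 lower, median log2 difference 0.01) and 5 of the 12 regulators of E-cadherin and epithelial state passed (3 higher, 2 lower, median log2 difference -0.46). The largest log2 differences were those of Cdh20 (6.37), Cdh10 (-4.44) and Cdh24 (1.62) among the cadherins, Ctnna3 (-4.30), Nectin1 (-3.86), Ctnnd2 (2.90) and Nectin2 (1.85) among the partners and Esrp1 (5.52), Grhl2 (4.97), Zeb2 (-4.78) and Epcam (2.01) among the regulators, where Zeb2 is a repressor of E-cadherin.

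Collecting duct and loop of Henle differ in origin, from the ureteric bud and from the nephron, and 2 of 9 cadherins passed between them, where 26.6% of the 17079 genes tested did (11.9% higher and 14.8% lower). Cdh6 was lower in collecting duct (log2 difference -2.08, SE 0.42, adjusted p = 6.41e-04; -3.25 in library 1 and -1.36 in library 2 alone, and -3.47 without the highest cell of each class and library), and so was Cdh4 (log2 difference -1.49, SE 0.46, adjusted p = 0.0174), at 19.7 and 23.1 CPM against 72.3 and 41.9 CPM. Cdh4 lost its call in DESeq2's Wald test (adjusted p = 0.0630) and with 1 more marker required (adjusted p = 0.0560). Cdh1 (log2 difference -0.12 with an interval from -0.65 to 0.40, adjusted p = 0.799) and Cdh16 (log2 difference 0.73 with an interval from 0.14 to 1.33, adjusted p = 0.0745) did not pass, and Cdh16 did in 5 alternative settings. In the lists, 12 of the 17 catenins and junction partners passed (8 higher, 4 lower, median log2 difference 0.44). Of these, Ctnna2 (2.38), Ctnnd2 (1.91), Nectin1 (1.30) and Pkp4 (-0.95) had the largest log2 differences, and Pkp4 is a relative of p120 catenin. Ctnna2 was at 3.32 in library 1 and -0.01 in library 2 alone, so its difference rests on library 1. Of the 12 regulators 0 passed edgeR's test (2 had an unadjusted p under 0.05, and 1 passed in DESeq2's Wald test), and of the other cadherins 3 of the 9 did, Cdh15 (5.49), Cdh22 (5.15) and Cdh20 (-4.17).

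From ureteric tip to collecting duct, along the maturing collecting system, 6 of 9 cadherins passed, where 32.1% of the 17079 genes tested did (16.5% higher and 15.6% lower). Cdh16 was higher in collecting duct (log2 difference 2.17, SE 0.31, adjusted p = 1.43e-05). Cdh2 (log2 difference -2.67, SE 0.38, adjusted p = 1.21e-05), Cdh4 (log2 difference -1.82, SE 0.47, adjusted p = 0.00460) and Cdh3 (log2 difference -1.52, SE 0.32, adjusted p = 8.11e-04) were lower, so the tip held more of 3 type I cadherins. Cdh1 was higher by a smaller step (log2 difference 0.79, SE 0.27, adjusted p = 0.0282), a call lost in 4 alternative settings. Cdh6 passed as higher (log2 difference 1.98, SE 0.53, adjusted p = 0.00577; 0.90 in library 1 and 2.59 in library 2 alone) but rests on the single collecting duct cell named above: without the highest cell of each class and library it did not pass (log2 difference 0.97, adjusted p = 0.121). In the lists, 2 of the 9 other cadherins passed (0 higher, 2 lower, median log2 difference -0.41), 6 of the 17 catenins and junction partners passed (4 higher, 2 lower, median log2 difference 0.00) and 3 of the 12 regulators of E-cadherin and epithelial state passed (1 higher, 2 lower, median log2 difference -0.44). By size of the log2 difference, the first were Cdh23 (-2.29) and Cdh24 (-1.01) among the cadherins, Ctnnd2 (-4.06), Jup (1.66), Ctnna1 (1.05) and Nectin2 (0.66) among the partners and Twist1 (-3.66), Ovol2 (-2.08) and Esrp2 (1.89) among the regulators, where Ovol2 and Esrp2 are epithelial and Twist1 is a factor of mesenchyme.

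Podocytes, the filtering cells of the glomerulus, share their origin in the early nephron with the tubule. Against early nephron 6 of 9 cadherins passed, where 51.9% of the 17079 genes tested did (24.6% higher and 27.3% lower). Cdh11 was higher in podocytes (log2 difference 2.43, SE 0.28, adjusted p = 2.39e-07), at 255 and 177 CPM against 51.7 and 30.3 CPM. Cdh3 (log2 difference -3.93, SE 0.42, adjusted p = 9.02e-08), Cdh1 (log2 difference -3.74, SE 0.36, adjusted p = 1.63e-08), Cdh13 (log2 difference -3.56, SE 0.46, adjusted p = 1.03e-06), Cdh6 (log2 difference -2.44, SE 0.41, adjusted p = 3.53e-05) and Cdh2 (log2 difference -0.96, SE 0.22, adjusted p = 7.33e-04) were lower. In single libraries the values were -4.77 and -3.05 for Cdh1, -4.59 and -3.31 for Cdh3, -3.16 and -4.49 for Cdh13 and -3.48 and -1.73 for Cdh6. Podocytes thus had little Cdh1 and a higher level of the mesenchymal Cdh11. Cdh2 lost its call with Leiden clusters (log2 difference -0.07, adjusted p = 0.825). Cdh4 did not pass (log2 difference 0.50 with an interval from -0.30 to 1.29, adjusted p = 0.316). In the lists, 3 of the 9 other cadherins passed (0 higher, 3 lower, median log2 difference -1.32), 14 of the 17 catenins and junction partners passed (10 higher, 4 lower, median log2 difference 0.52) and 8 of the 12 regulators of E-cadherin and epithelial state passed (4 higher, 4 lower, median log2 difference -1.01). The largest log2 differences were those of Cdh20 (-4.84), Cdh22 (-2.90) and Cdh24 (-1.32) among the cadherins, Tjp1 (3.10), Ctnnd2 (-2.65), Ctnna3 (-1.97) and Afdn (-1.87) among the partners, where Tjp1 is a scaffold protein of junctions, and Esrp1 (-4.46), Epcam (-3.65), Grhl2 (-3.38) and Ovol1 (-2.73) among the regulators.

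Stroma and nephron progenitors are the mesenchymal neighbours of the nephrogenic zone, and 6 of 9 cadherins passed between them, where 42.6% of the 17079 genes tested did (21.7% higher and 20.9% lower). Cdh4 was lower in stroma (log2 difference -6.19, SE 0.54, adjusted p = 4.10e-09), at 5.34 and 4.12 CPM against 287 and 391 CPM. Cdh2 (log2 difference -2.96, SE 0.22, adjusted p = 4.29e-10) and Cdh6 (log2 difference -1.65, SE 0.42, adjusted p = 0.00313) were lower as well. Cdh11 was higher (log2 difference 0.98, SE 0.26, adjusted p = 0.00396), a call lost with Leiden clusters and when free RNA was subtracted at log2 differences of 0.91 and 0.99 (adjusted p = 0.0534 and 0.209, SE 0.37 and 0.61). Cdh13 passed narrowly as lower (log2 difference -0.92, SE 0.37, adjusted p = 0.0491) and not in 5 alternative settings. Cdh5 passed as higher (log2 difference 1.73, SE 0.48, adjusted p = 0.00604) at levels of only 4.18 and 2.44 CPM against 0.993 and 0.841 CPM, and free RNA held 61.7 and 35.3 CPM of it. It passed with free RNA subtracted (log2 difference 3.11, adjusted p = 0.0147) and did not pass without doublet removal (log2 difference 0.84, adjusted p = 0.262). The subtraction took the same share of free RNA for all classes of a library and allowed no negative counts. Whether that share differed between stroma and nephron progenitors was not tested, so the part of free RNA in this difference stays unknown.

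In the lists for stroma against nephron progenitors, 3 of the 9 other cadherins passed (1 higher, 2 lower, median log2 difference 0.20), 11 of the 17 catenins and junction partners passed (6 higher, 5 lower, median log2 difference 0.24) and 6 of the 12 regulators of E-cadherin and epithelial state passed (5 higher, 1 lower, median log2 difference 1.74). The largest log2 differences among the regulators were those of Twist1 (7.40), Twist2 (5.86), Zeb2 (4.04) and Snai1 (3.74); Twist1, Twist2 and Snai1 are transcription factors of mesenchyme. Among the partners they were those of Ctnnd2 (-3.64), Ctnnal1 (-2.82), Vcl (1.98) and Plekha7 (-1.75), where Vcl is vinculin, which reinforces junctions under tension, and among the cadherins those of Cdh22 (-3.60), Cdh8 (3.58) and Cdh15 (-2.02).

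Within stroma, cells with a Foxd1 UMI were compared with cells that had Penk and no Foxd1. Of the 9 cadherins 1 passed, where 3.23% of the 16844 genes tested did (1.85% higher and 1.38% lower). Cdh2 was lower in Penk-positive stroma (log2 difference -1.34, SE 0.25, adjusted p = 0.00161), at 26.2 and 20.1 CPM against 46.3 and 65.7 CPM. Cdh11 was 1448 and 1492 CPM against 1184 and 1277 CPM and did not pass (log2 difference 0.25 with an interval from -0.27 to 0.76, adjusted p = 0.832). Cdh3 did not pass (log2 difference -1.47 with an interval from -2.42 to -0.52, adjusted p = 0.105), nor did Cdh13 (log2 difference -1.30 with an interval from -2.42 to -0.18, adjusted p = 0.316). With only the 2 classes in the model, 5 of 9 passed, where 1742 of the 12272 genes tested did. The 8 nephron progenitor markers summed to 349 and 376 CPM in Foxd1-positive and 644 and 661 CPM in Penk-positive stroma, and their part in the result was not tested. In the lists, 3 of the 17 catenins and junction partners passed (1 higher, 2 lower, median log2 difference -0.14) and 1 of the 12 regulators of E-cadherin and epithelial state passed (1 higher, 0 lower, median log2 difference 0.57), and 0 of the 9 other cadherins passed (3 had an unadjusted p under 0.05, and 0 passed in DESeq2's Wald test). The genes that passed were Nectin1 (1.65), Afdn (-0.83) and Tjp1 (-0.75) and Zeb2 (1.005), on the log2 scale. Cells of the stroma with neither gene had 26.7 and 23.7 CPM of Cdh2 and 23.7 and 29.4 CPM of Cdh13, the highest Cdh13 of the 3 stromal groups.

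Mural cells, the smooth muscle, pericyte and renin cells of vessel walls, differed from stroma in 4 of 9 cadherins, where 14.3% of the 17079 genes tested passed (7.83% higher and 6.49% lower). Cdh11 was lower in mural cells (log2 difference -2.27, SE 0.27, adjusted p = 2.95e-06), at 313 and 253 CPM against 1315 and 1396 CPM, and Cdh6 was higher (log2 difference 1.66, SE 0.45, adjusted p = 0.0146). Cdh13 (log2 difference 1.28, SE 0.42, adjusted p = 0.0435) and Cdh2 (log2 difference 0.71, SE 0.23, adjusted p = 0.0431) passed narrowly as higher and lost their calls in 9 and 7 of 15 alternative settings. Without the library as a block, the adjusted p was 0.0982 for Cdh13 and 0.0864 for Cdh2. Without the highest cell of each class and library it was 0.132 for Cdh13. In the lists, 1 of the 9 other cadherins passed (0 higher, 1 lower, median log2 difference -1.36), 6 of the 17 catenins and junction partners passed (5 higher, 1 lower, median log2 difference 0.17) and 2 of the 12 regulators of E-cadherin and epithelial state passed (0 higher, 2 lower, median log2 difference -0.53). The cadherin was Cdh18 (-8.39), with a wide SE of 1.87, so the size of its difference is uncertain. The largest log2 differences among the others were those of Ctnna3 (5.77), Ctnnal1 (1.64), Vcl (1.40) and Afdn (-1.14) and of the regulators Twist2 (-1.91) and Snai2 (-1.56). Ctnna3, alpha-T-catenin, is a catenin of muscle junctions.

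The mural cadherins were unevenly spread over mural cells, as a description of divisions chosen after the classes had been seen. Cdh6 was 96.9 and 164 CPM in renin cells (26 and 37 cells with Ren1), 102 and 161 CPM in cells with the smooth muscle genes Myh11 or Cnn1 (62 and 23 cells) and 11.3 and 24.9 CPM in cells with the pericyte genes Kcnj8 or Abcc9 (89 and 61 cells). Cdh13 was highest in smooth muscle cells (34.9 and 172 CPM, from 27 and 62 UMIs), against 9.71 and 11.3 CPM in the Kcnj8 or Abcc9 cells. In library 2, however, 1 mural cell held 28 of the 92 Cdh13 UMIs of the whole class, and its group was not recorded. Cdh11 was lowest in renin cells, at 117 and 99.0 CPM against 301 and 293 CPM in the Kcnj8 or Abcc9 cells. In both libraries, renin and smooth muscle cells thus had more Cdh6 than the Kcnj8 or Abcc9 cells.

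Endothelium differed from mural cells in 6 of 9 cadherins, where 33.6% of the 17079 genes tested passed (17.2% higher and 16.5% lower). Cdh5 was higher in endothelium (log2 difference 8.79, SE 0.45, adjusted p = 1.67e-12), at 717 and 744 CPM against 1.65 and 1.71 CPM. Cdh4 was higher too (log2 difference 2.31, SE 0.61, adjusted p = 0.00499), at 26.0 and 51.1 CPM against 6.18 and 10.3 CPM. Cdh11 (log2 difference -5.42, SE 0.34, adjusted p = 2.48e-11), Cdh3 (log2 difference -3.28, SE 0.83, adjusted p = 0.00331), Cdh6 (log2 difference -2.32, SE 0.47, adjusted p = 4.21e-04) and Cdh2 (log2 difference -1.94, SE 0.24, adjusted p = 1.15e-06) were lower. Cdh6 was at -1.65 in library 1 and -3.05 in library 2 alone. Cdh13 did not pass (log2 difference 0.24 with an interval from -0.54 to 1.03, adjusted p = 0.696). In the lists, 3 of the 9 other cadherins passed (2 higher, 1 lower, median log2 difference 1.88), 14 of the 17 catenins and junction partners passed (9 higher, 5 lower, median log2 difference 0.47) and 5 of the 12 regulators of E-cadherin and epithelial state passed (0 higher, 5 lower, median log2 difference -0.59). The largest log2 differences were those of Cdh23 (3.501), Cdh22 (3.27) and Cdh24 (-1.85) among the cadherins, Ctnna3 (-3.23), Afdn (3.04), Arvcf (-2.41) and Tjp1 (2.25) among the partners, where Afdn is afadin, and Twist1 (-6.60), Twist2 (-5.22), Snai1 (-3.01) and Zeb2 (-2.10) among the regulators. The libraries differed for Cdh22, at 6.99 in library 1 and 2.21 in library 2 alone.

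Endothelial cells with Plvap, a gene of fenestrated capillaries and veins, were set beside those without, with no test. Cdh4 was 32.4 and 59.7 CPM in the 432 and 451 cells with Plvap and 8.50 and 13.8 CPM in the 220 and 124 cells without. Cdh13 went the opposite way, at 14.950 and 31.4 CPM with and 62.8 and 63.3 CPM without Plvap. Cdh5 was 669 and 722 CPM with and 845 and 843 CPM without. Neither Cdh4 nor Cdh13 overlapped between the sides, whereas Cdh5 was high on both.

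**Figure D4:**
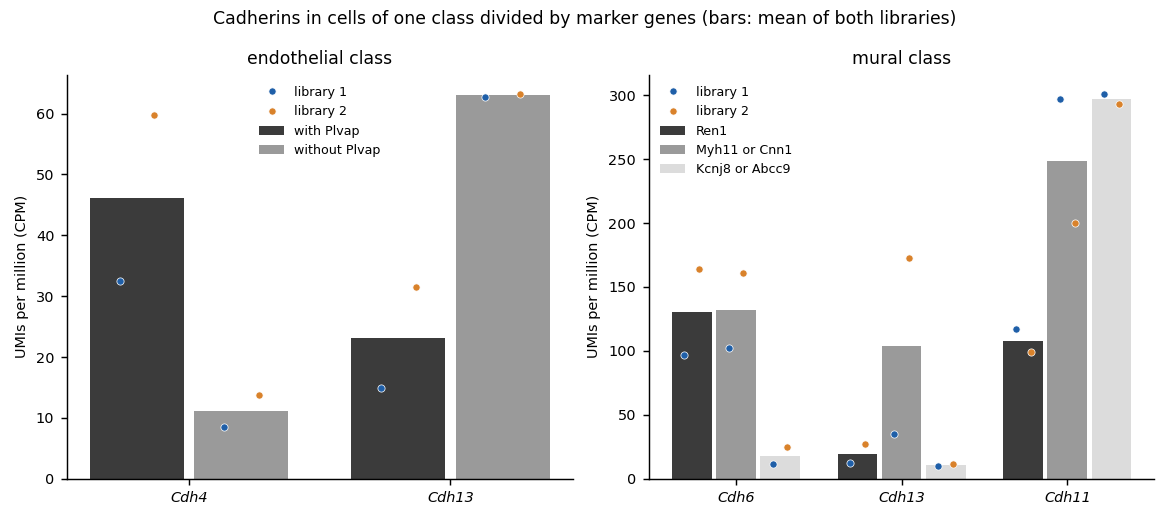
Levels of selected cadherins (vertical axis, CPM) in endothelial and mural cells divided by marker genes (bars, mean of both libraries; points, libraries). Cdh4 is higher in endothelium with Plvap and Cdh13 in endothelium without it, and Cdh6 is higher in mural cells with Ren1, Myh11 or Cnn1 than in those with Kcnj8 or Abcc9.

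The exchange of N-cadherin for E-cadherin is the classic sign of epithelial conversion, and the log2 ratio of Cdh1 to Cdh2 UMIs (1 added to each) was used to order the classes; its order is read and not its sign, since the genes were not scaled to each other. Along the nephron it was -7.520 and -6.303 in nephron progenitors, -0.762 and -0.773 in early nephron, 1.082 and 1.430 in proximal precursors and 3.604 and 4.113 in proximal tubule. It was 6.765 and 7.089 in loop of Henle and 6.386 and 6.682 in collecting duct. Ureteric tip stood at 3.276 and 3.031, below collecting duct in both libraries. Podocytes, at -4.517 and -2.831, lay beside stroma (-3.573 and -3.653) and mural cells (-3.958 and -3.373). The values of these steps did not overlap along the proximal line, and no test was made on the ratio.

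**Figure D5:**
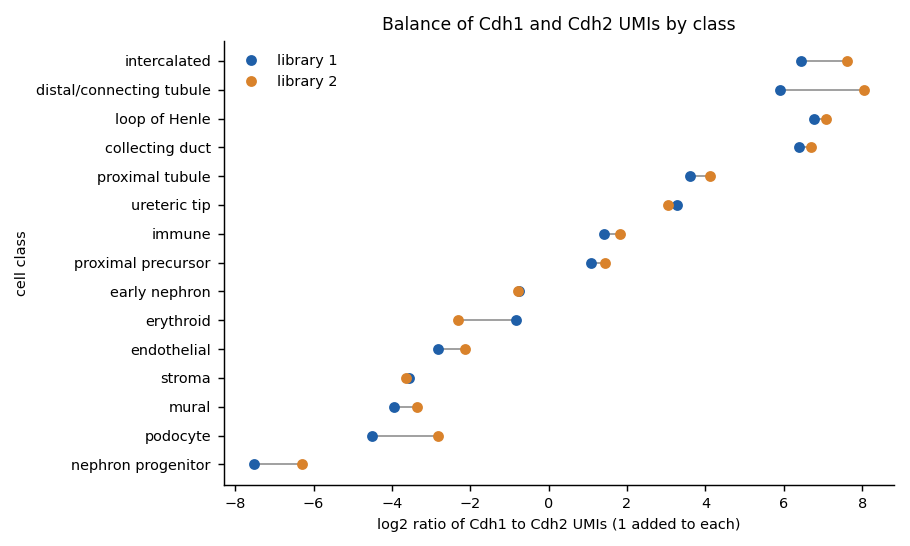
Log2 ratio of Cdh1 to Cdh2 UMIs (horizontal axis, 1 added to each) by class (vertical axis, ordered by the mean of the libraries); points are libraries, joined by a line. Nephron progenitors lie lowest, early nephron at -0.762 and -0.773, and intercalated, distal, loop of Henle and collecting duct classes highest. Few Cdh2 UMIs were counted in intercalated (3 and 0) and distal cells (9 and 4), so the order among these highest classes is not read.

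Whether cadherins were found in the same cells was described with each cell thinned to 10000 UMIs. Of 142 ordered pairs with at least 20 cells on each side, 15 had a gap over 15 percentage points the same way in both libraries, a rule chosen after the values were seen, and all lay in early nephron or podocytes. In early nephron, Cdh4 was found in 84.1% and 87.3% of cells with Cdh2 (170 and 79 cells) and in 55.4% and 56.9% of cells without. Cdh3 was found in 22.5% and 19.8% of cells with Cdh6 and in 43.4% and 41.2% of cells without. Among cells with Cdh16, Cdh3 was found in 40.5% and 40.5%, against 20.3% and 18.2% of cells without, and Cdh1 in 44.0% and 52.4%, against 27.8% and 33.0%. Cdh3 was found in 40.4% and 27.5% of cells with Cdh1, against 19.8% and 24.1% of cells without, so in library 2 this gap was small. In podocytes, Cdh2 was found in 74.1% and 70.8% of cells with Cdh6 (27 and 24 cells) and in 23.3% and 22.0% of cells without. A UMI not found in a cell does not show that the gene is off, and no test was made over cells.

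The genes most like each cadherin were ranked by Pearson correlation of log2(mean CPM + 5) over the 15 classes among 11563 genes, as a description in which the points share 2 libraries. Cdh1 was most like Ripk4 (r = 0.990), Ocln (r = 0.976), Spint1 (r = 0.974); Ocln encodes the tight junction protein occludin. Cdh16 was most like Spint1 (r = 0.983), Elovl7 (r = 0.982), Gm28040 (r = 0.975). Cdh3 was most like Sox9 (r = 0.934), Flywch2 (r = 0.915), Myo5c (r = 0.907); Sox9 is a transcription factor of the ureteric tip. Cdh2 was most like Lrig3 (r = 0.938), 2610307P16Rik (r = 0.934), Eya4 (r = 0.925), and Cdh4 Acvr2b (r = 0.905), Il17rd (r = 0.891), Hist3h2ba (r = 0.855). Cdh6 was most like Anxa13 (r = 0.895), Ccdc178 (r = 0.877), Epha7 (r = 0.876). Cdh11 was most like Mrc2 (r = 0.961), Smim41 (r = 0.942), Tnc (r = 0.939), with Tnc encoding the matrix protein tenascin-C. Cdh5 was most like Gimap4 (r = 0.995), Gpihbp1 (r = 0.993), Fam167b (r = 0.991), and Gpihbp1 is a lipase-binding protein of capillaries. Cdh13 was most like Chst2 (r = 0.914), Atp10a (r = 0.882), Jam3 (r = 0.874). Among the cadherins themselves, Cdh1 and Cdh16 were most alike (r = 0.959), followed by Cdh2 with Cdh11 (r = 0.767), and Cdh13 and Cdh16 were least alike (r = -0.70).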

How the data were processed

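Single-cell RNA was measured with 10x Genomics 3′ chemistry in 2 kidney libraries. The deposited values are raw UMI counts per gene and barcode, not normalized. They were made with Cell Ranger 6.0.1 on mm10, per the submitters' processing notes, while the file headers name Cell Ranger 4. The libraries hold 200331687 and 173166168 UMIs.

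Cells were barcodes with 3000 or more UMIs and 500 or more genes in which mitochondrial genes took no more than 20% of UMIs, and the highest Scrublet scores (scanpy 1.11.5) were removed at 0.8% per 1000 cells (245 and 142 barcodes). A marker counted when its UMIs exceeded the free RNA of barcodes with up to 100 UMIs (Poisson upper tail under 0.01). A class needed 3 such markers and a share of its markers 1.5 times that of the next class. Cells that reached no class (1363 and 585) or were mixed (196 and 232) stayed out of the comparisons. The gate settings were chosen after looking at marker counts, without cadherins. UMIs were summed per library and class and tested with edgeR 4.0.16 (quasi-likelihood, TMM, filterByExpr) in 1 model of 15 classes with 14 residual degrees of freedom, and stromal zones in a model of 17 classes. The library was a block because classes of 1 library come from the same sample. Gate markers and Penk were left out of the tested genes. SE is the absolute log2 difference over the root of F. The script was tested on simulated data, where the share of false calls exceeded the threshold with gene-wise dispersions and not with trended ones, so calls near the threshold are less certain.

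The members, the gene lists and the markers were chosen with earlier results of these data known. All 9 members are named with values, the 3 genes most like each by correlation, and from each list up to 4 genes per comparison with the largest difference among those that passed. Alternatives changed the scaling, tool (DESeq2 1.42.0), filters, block, doublet removal, gate, clustering (Leiden), free RNA and libraries. Levels of different genes are not compared, apart from the common cut of 50 CPM. RefSeq gave 1 of 9 promoters.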

Additional observations from a re-analysis of the deposited data

How the results depend on the processing

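Of the 52 cadherin differences that passed, 39 kept their direction and their call in all 15 alternative settings, and of the 47 that did not pass, 31 did not pass in any. With the library left out as a replicate block, 48 of the 52 passed in the same direction, and the count for mural cells against stroma fell from 4 to 2. That count was also 2 with at least 10000 UMIs per cell, with the doublet rate doubled, with 1 more marker required and with free RNA subtracted. Without the block 1858 of 17079 genes passed in this comparison, against 2446 of 17079 with it. In the other 4 settings 2455 of 17061, 2463 of 17021, 2094 of 17044 and 2325 of 17061 genes did. For collecting duct against loop of Henle the count of 2 became 1 in DESeq2's Wald test, 1 with 1 more marker required and 5 with Leiden clusters. Of all genes, 4716 of 17079, 4163 of 17044 and 4245 of 17993 passed in these settings. For Penk-positive against Foxd1-positive stroma the count of 1 became 2 with no filter on low counts and 5 with only the classes compared in the model. There 700 of 26414 and 1742 of 12272 genes passed. With Leiden clusters 3 differences turned: Cdh2 in loop of Henle against proximal tubule (0.98), Cdh6 in the same comparison (0.0758) and Cdh2 in collecting duct against loop of Henle (-2.55, adjusted p = 1.02e-05 in edgeR). The cause was not tested. Leaving out the highest cell of each class and library was chosen after seeing the data, and it ended 2 calls. With 1 library left out there is no residual spread and so no test, and the sign of all 104 values of the 52 differences was kept. These differences were picked for passing in a fit of the same 2 libraries, so this agreement was largely set by the choice. Among the 47 that did not pass, 75 of 94 values kept the sign. Subtracting the median instead of the pooled estimate of free RNA was not run. Classes with few cells limit the precision, and 2 libraries per class give little information on the spread of a single gene.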

Other observations

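The urothelial gate, which lines the ureter and pelvis and was marked by uroplakins, Krt5 and Trp63, held 14 and 9 cells, too few for the model. Its Cdh1 stood at 239 and 214 CPM and its Cdh3 at 46.6 and 48.1 CPM. Cdh13 was 34.2 and 170 CPM, so the second library exceeded the early nephron values. Cdh2, Cdh5, Cdh6 and Cdh11 had 0 UMIs in both libraries, which allows up to 9.32 and 11.1 CPM.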
